A study of Homo sapiens with 2 samples.

Results

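The 10 genes described here encode cytoskeletal actins and tubulins: ACTB, ACTG1, ACTA2, TUBA1A, TUBA1B, TUBA1C, TUBB2A, TUBB3, TUBB4B and TUBB6. They were taken by name from the 19970 protein-coding genes on chromosomes 1 to 22 and X. For each gene, every S9.6 peak from 1000 bp before to 1000 bp after its span was collected. The data come from CUT&Tag, in which an antibody directs a transposase to cut and tag nearby DNA, in A549, a human lung cancer cell line, with the genotype given as wild type and no treatment named. The labels name 1 S9.6 library, made with an antibody against RNA-DNA hybrids, and 1 IgG library, whose data are not used here. Neither has a replicate, so every comparison below describes this peak list without a test.

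Actin filaments and microtubules are polymers of actin and of dimers of alpha- and beta-tubulin, and each subunit comes from a family of genes with closely similar proteins. Some members serve nearly every cell type, whereas others predominate in muscle or in neurons. R-loops form where a transcript pairs with its template strand, and they are known to gather at starts and ends of transcribed genes. As ubiquitous members stood ACTB and ACTG1, which encode the cytoplasmic actins, the alpha-tubulin genes TUBA1B and TUBA1C, and the beta-tubulin genes TUBB4B and TUBB6. As tissue-restricted members stood ACTA2, the smooth muscle actin gene, and TUBA1A, TUBB2A and TUBB3, which predominate in neurons. TUBB3 is also known to be produced in some carcinomas, lung cancers among them, so its class describes healthy tissue and not this line.

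The list gives each peak 2 values, a maximum coverage, the deepest stacking of mapped sequence in the peak, and a total signal, the coverage summed over its bases. Both are whole numbers and appear unscaled. The total number of reads is unknown. The lowest total signal on these chromosomes was 745, so a gene without a peak may hold signal under the authors' threshold. The 45756 peaks there had a median maximum of 2. A peak list measures no RNA. Of 6 epithelial markers expected in this line, 5 had a peak in their window (83.3%), compared with 60.4% of all protein-coding genes. These were KRT8, KRT18, KRT19, KRT7 and CDH1, and the spans of KRT8 and KRT18 overlap. EPCAM had none, which does not show that EPCAM is silent.

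S9.6 peaks lay in the windows of 8 of the 10 genes, with TUBA1A and TUBB6 as the genes without any. The share of 80.0% compared with 60.4% of all protein-coding genes, and with 57.5% of those whose span lies between the shortest and the longest member (2421 to 56264 bp). Over the gene span alone, 7 members had a peak, since the only TUBB2A peak lies wholly upstream. At either end of the span, within 1000 bp, 6 of 10 members had a peak (60%), compared with 40.1% of all protein-coding genes and 43.2% of those in that range of spans. The range takes in 12777 genes and does not match the members in length. Their median span was 4082 bp, compared with 24190 bp over all protein-coding genes. The 8 genes held 19 distinct peaks, 13 of them at an end and 6 inside the gene only. Of the 19, 6 also lay within 1000 bp of a boundary of another gene. Without these shared peaks, 4 of 10 members had a peak at an end and 6 of 10 had any peak. The shares of all protein-coding genes were not recomputed in that way. The like set is the 28363 peaks in windows of protein-coding genes. The median width of the 19 peaks was 880 bp (419 to 2731), compared with 689 bp in that set. Their median total signal was 1536 (766 to 12079), compared with 1012. Their median maximum coverage was 3 (2 to 12), the same as the 3 of that set. A maximum of 5 or more was reached by 7 of the 19 peaks (36.8%), compared with 11.7%.

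**Figure D1:**
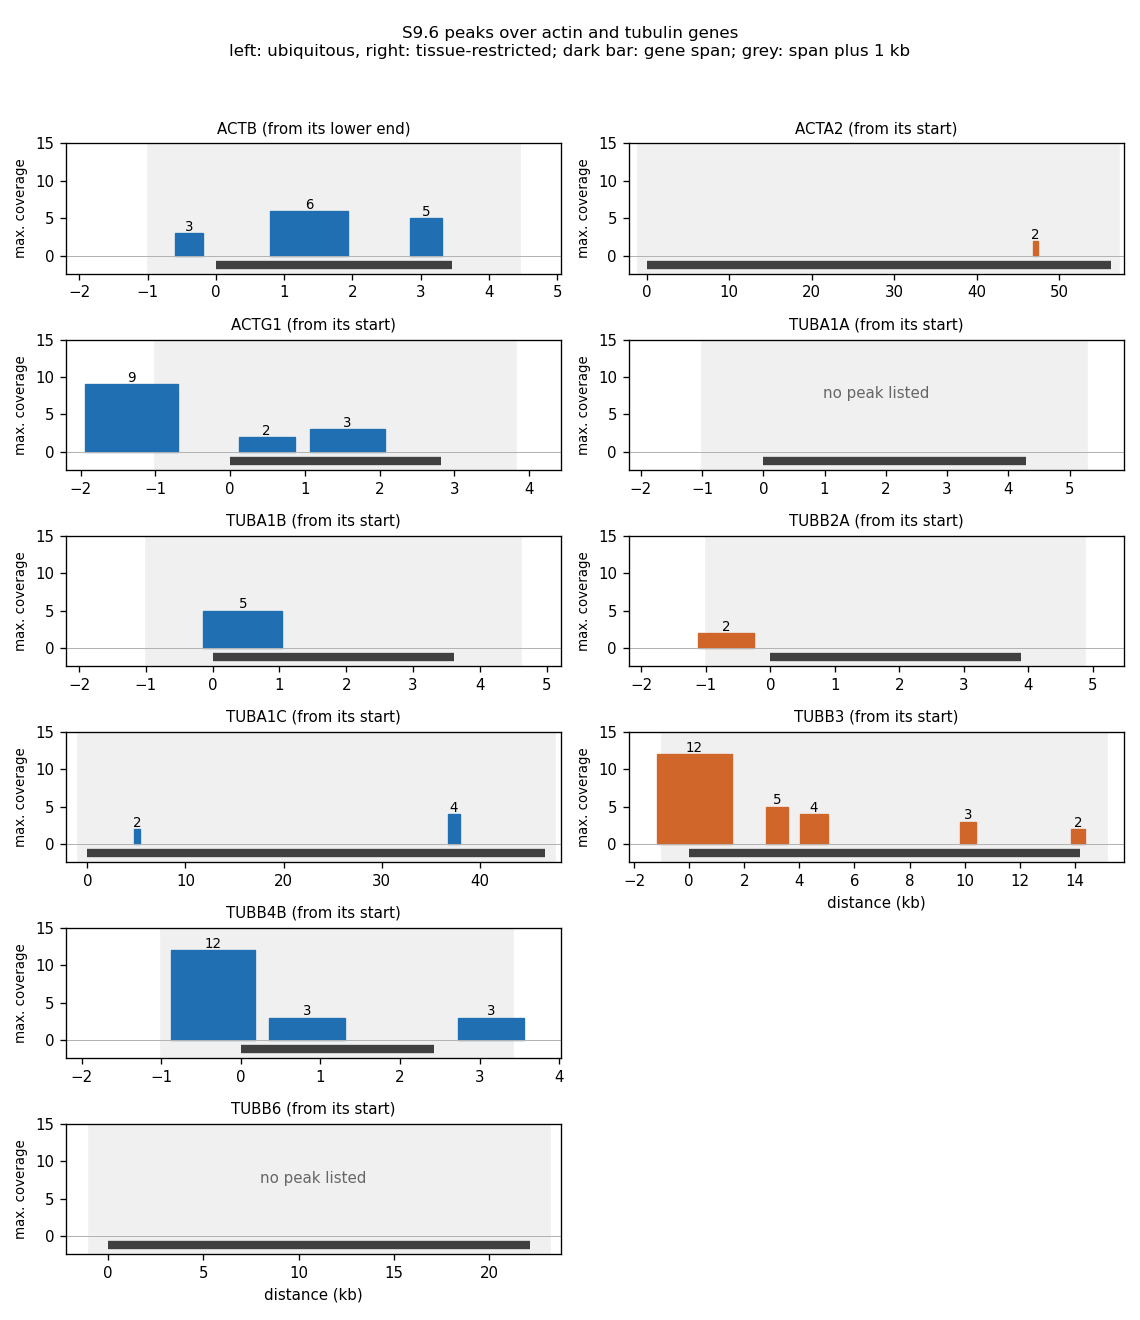
Each panel shows 1 gene in the direction of transcription (ACTB from its lower end), with distance in kb on the horizontal axis and maximum coverage on the vertical axis. Blocks are peaks at their true width with their maximum coverage as height, dark bars are gene spans and grey areas add 1 kb on each side. Ubiquitous genes are on the left and tissue-restricted genes on the right. TUBB4B and TUBB3 reach 12 at their starts, while TUBB6 and TUBA1A are empty.

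Promoter sequences of RefSeq (GRCh38.p14) were at hand for 9 of the 10 members. ACTB has no entry. The sequences below come from starts with and without a peak over the promoter window. Each runs 5′ to 3′ over the 250 bases before a listed start. At TUBB4B the capital marks the 1 base of maximum coverage, and at TUBA1C the capitals mark the 73 bases of this stretch that lie in the peak's region of maximum coverage. At TUBA1B capitals mark the 140 bases inside the peak. The remaining 3 show matched motifs in capitals: in ACTG1 a CArG box (the motif bound by SRF) after a pair of G4 patterns, in TUBB2A a G4 pattern joined to TATAAA, and in TUBB6 a G4 pattern. Capitals therefore cannot be compared between stretches marked for peaks and stretches marked for motifs. The TUBA1C stretch also holds a G4 pattern, 250 to 220 bases before the start on the other strand, left in lower case. TUBB2A, shown with motifs, counts as a window with a peak by an overlap of 4 bases.
TUBB4B (plus strand, chr9:137241037-137241286): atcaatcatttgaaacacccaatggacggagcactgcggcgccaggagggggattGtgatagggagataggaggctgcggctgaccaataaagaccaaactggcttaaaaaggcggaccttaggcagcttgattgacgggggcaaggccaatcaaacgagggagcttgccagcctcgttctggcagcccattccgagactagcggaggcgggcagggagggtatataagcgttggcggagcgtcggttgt
TUBA1C (plus strand, chr12:49264832-49265081): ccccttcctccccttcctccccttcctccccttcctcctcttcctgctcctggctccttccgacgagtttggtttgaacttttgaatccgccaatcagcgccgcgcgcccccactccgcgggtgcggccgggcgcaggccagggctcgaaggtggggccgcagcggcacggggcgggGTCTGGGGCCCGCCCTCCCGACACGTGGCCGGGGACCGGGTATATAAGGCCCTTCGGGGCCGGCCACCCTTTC
TUBA1B (minus strand, chr12:49131396-49131645): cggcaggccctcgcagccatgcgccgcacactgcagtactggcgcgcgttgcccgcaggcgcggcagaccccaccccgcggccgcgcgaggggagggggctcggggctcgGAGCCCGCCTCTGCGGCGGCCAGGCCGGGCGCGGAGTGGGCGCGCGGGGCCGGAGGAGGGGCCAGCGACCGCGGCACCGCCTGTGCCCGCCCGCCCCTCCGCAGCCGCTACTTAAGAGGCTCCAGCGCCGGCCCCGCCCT
ACTG1 (minus strand, chr17:81512800-81513049): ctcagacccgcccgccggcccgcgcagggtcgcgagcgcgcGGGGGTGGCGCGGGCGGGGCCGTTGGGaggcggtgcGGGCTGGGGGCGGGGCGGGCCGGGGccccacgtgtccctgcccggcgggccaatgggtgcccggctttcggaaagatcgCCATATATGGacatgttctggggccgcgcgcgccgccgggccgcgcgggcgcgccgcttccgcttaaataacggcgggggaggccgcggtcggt
TUBB2A (minus strand, chr6:3157545-3157794): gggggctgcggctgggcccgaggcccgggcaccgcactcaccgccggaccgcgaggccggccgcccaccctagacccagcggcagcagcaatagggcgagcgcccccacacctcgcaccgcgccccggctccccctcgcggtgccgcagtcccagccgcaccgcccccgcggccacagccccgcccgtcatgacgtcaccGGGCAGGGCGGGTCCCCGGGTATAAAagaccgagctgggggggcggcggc
TUBB6 (plus strand, chr18:12307991-12308240): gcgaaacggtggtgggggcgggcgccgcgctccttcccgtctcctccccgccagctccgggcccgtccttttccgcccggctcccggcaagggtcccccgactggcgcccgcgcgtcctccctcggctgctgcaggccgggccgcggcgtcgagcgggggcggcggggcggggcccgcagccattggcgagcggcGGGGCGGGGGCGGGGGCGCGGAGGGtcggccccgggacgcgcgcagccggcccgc

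Among the actins, both cytoplasmic genes carried 3 peaks, a number that 18.7% of protein-coding genes, and 14.3% of those in the members' range of spans, reached or passed. ACTB, on chromosome 7 from 5527148 to 5530601, held its tallest peak inside the gene. That peak was 1138 bp wide, reached a coverage of 6, summed to a total of 3493, and ran from 793 to 1930 bp above the lower end, which is 2660 to 1523 bp below the upper end. A second peak, with a maximum of 5, a total of 1421 and a width of 472 bp, lay from 609 to 138 bp below the upper end, or 2844 to 3315 bp above the lower end. Both lay wholly within the gene. The remaining peak lay wholly outside, from 606 to 188 bp below the lower end and so 4059 to 3641 bp below the upper end, with a maximum of 3, a total of 798 and a width of 419 bp. It also lay within 1000 bp of a boundary of LOC221946, a lncRNA gene. A tallest peak of 6 or more was found for 11.4% of protein-coding genes.

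ACTG1, on chromosome 17 from 81509971 to 81512799 on the minus strand, had its tallest peak upstream of the gene. The peak reached a maximum of 9 with a total of 5152 over 1246 bp. It began 701 bp and ended 1946 bp upstream of the start, which places it 3529 to 4774 bp from the gene's other end. The middle of its maximum lay 1344 bp upstream, outside the 1000 bp window, and the peak is also within 1000 bp of FSCN2, a gene for an actin-bundling fascin. Its assignment to ACTG1 thus rests on its near edge. Inside the gene, peaks were low. A peak with a maximum of 2, a total of 1019 and a width of 753 bp lay from 114 to 866 bp after the start, 2714 to 1962 bp from the end. Another, with a maximum of 3, a total of 1665 and a width of 997 bp, lay from 1073 to 2069 bp after the start, 1755 to 759 bp from the end. No peak covered the ACTG1 promoter window printed above, although its GC content was 77.3%.

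ACTA2, on chromosome 10 from 88935074 to 88991337 on the minus strand, held 1 low peak over a span of 56264 bp. The peak had a maximum of 2, a total of 918 and a width of 668 bp, and lay from 46808 to 47475 bp after the outermost start, or 9455 to 8788 bp before the gene's end. The ACTA2 span overlaps FAS and ACTA2-AS1, but the peak lay outside both. Neither of the 2 listed ACTA2 starts had a peak within its promoter window, and the nearer start was 8584 bp from the middle of the maximum. Covered bases made up 1.15% of the ACTA2 window, compared with 37.2% at ACTB and 42.5% at ACTG1. These genes differ widely in length, since ACTB and ACTG1 span 3454 and 2829 bp. The median over all protein-coding genes was 1.02%, with a median gene span of 24190 bp.

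The alpha-tubulin genes TUBA1B, TUBA1A and TUBA1C lie in this order on chromosome 12 within 146819 bp. The outer genes of the cluster had peaks at a listed start, and the middle one, TUBA1A, had none. TUBA1B, from 49127782 to 49131395 on the minus strand, had 1 peak with a maximum of 5, a total of 2581 and a width of 1181 bp. It reached from 140 bp upstream of the start to 1040 bp inside the gene, 3753 to 2573 bp from the end, with the middle of the maximum 782 bp inside. The lncRNA gene TUBA1B-AS1 has a boundary within 1000 bp of it, and a peak list has no strand.

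TUBA1C, from 49227926 to 49274600 on the plus strand, had 2 peaks, neither at an end of its span. The taller had a maximum of 4, a total of 2017 and a width of 1258 bp and lay 36719 to 37976 bp after the outermost start and 9955 to 8698 bp before the end. Although far from the outermost start, it covered another listed TUBA1C start, at 49265082, with the middle of the maximum 229 bp downstream of it. The other 2 listed starts, at 49227926 and 49228019, had no peak in their promoter windows. The lower TUBA1C peak, with a maximum of 2, a total of 1003 and a width of 628 bp, lay 4758 to 5385 bp after the outermost start and 41916 to 41289 bp before the end. Counting ends of the gene span alone therefore leaves out the TUBA1C peak at an internal start.

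TUBA1A, from 49184795 to 49189080 on the minus strand, encodes an alpha-tubulin needed in developing neurons. The nearest peaks on its lower and upper side were 42226 and 43604 bp away. The GC content of its promoter window was 55.7%, compared with 77.0% at TUBA1B and 67.7% at the TUBA1C start with a peak.

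Among the beta-tubulins, the ubiquitous TUBB4B and the neuronal TUBB3 stood at the same height, while TUBB2A was low and TUBB6 had no peak. TUBB4B, on chromosome 9 from 137241287 to 137243707 on the plus strand, also contributes tubulin to cilia. Its tallest peak had a maximum of 12, a total of 4286 and a width of 1064 bp, and stretched from 882 bp before to 181 bp after the start, 3302 to 2239 bp from the end. The maximum fell on 1 base, 195 bp upstream of the start. A second TUBB4B peak, with a maximum of 3, a total of 1436 and a width of 946 bp, lay 357 to 1302 bp after the start and 2063 to 1118 bp before the end. Another, with a maximum of 3, a total of 1536 and a width of 823 bp, lay 312 to 1134 bp beyond the end and 2732 to 3554 bp from the start, within 1000 bp of a boundary of CIMIP2A. Peaks covered 61.0% of the TUBB4B window, the highest value among the 10 members, whose shortest span, 2421 bp, is also that of TUBB4B.

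TUBB3, on chromosome 16 from 89921925 to 89936097 on the plus strand, had 5 peaks, the most of any member. The peak at its start had a maximum of 12 and a total of 12079, the largest total among the 19, over 2731 bp. It ran from 1176 bp before to 1554 bp after the outermost start, 15348 to 12618 bp from the end, and covered both listed starts, at 89921925 and 89923342. The middle of its maximum lay 266 bp inside the gene. MC1R, the melanocortin receptor gene, ends 952 bp before TUBB3. The peak begins further upstream than that and so overlaps MC1R, and the signal is shared between both windows.

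The remaining TUBB3 peaks were lower with distance from the start. The next had a maximum of 5, a total of 2084 and a width of 812 bp, 2783 to 3594 bp after the outermost start and 11389 to 10578 bp before the end. It was followed by a peak with a maximum of 4, a total of 2041 and a width of 1046 bp, 4010 to 5055 bp after the start and 10162 to 9117 bp before the end. These lay inside the gene, away from any other gene's boundary. Further on, a peak with a maximum of 3, a total of 1025 and a width of 596 bp lay 9827 to 10422 bp after the start and 4345 to 3750 bp before the end. The last, with a maximum of 2, a total of 766 and a width of 504 bp, spanned the gene's end, from 298 bp before to 205 bp after it, 13874 to 14377 bp from the start. A tallest peak of 12 or more, as at TUBB4B and TUBB3, was found for 1.45% of protein-coding genes.

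**Figure D2:**
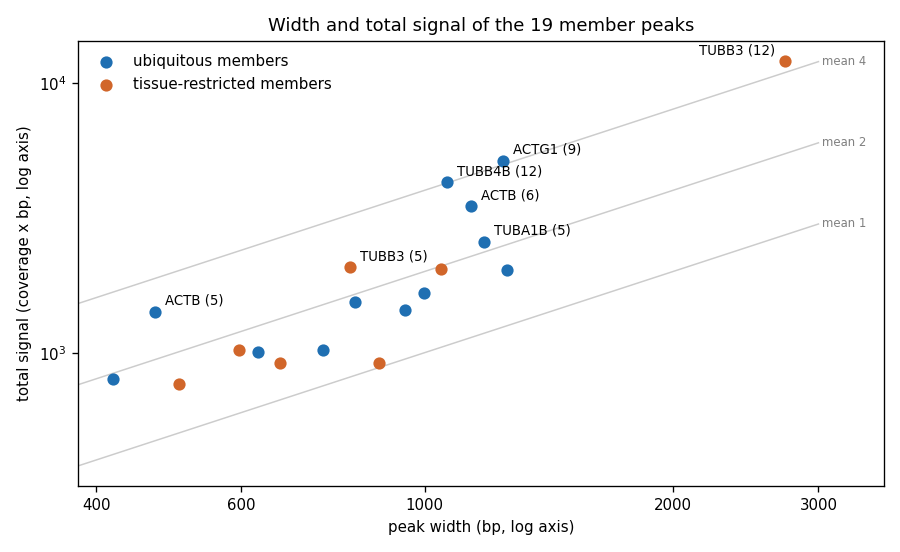
Each point is 1 of the 19 peaks, with width in bp and total signal (coverage multiplied by bp), both on log axes; blue points belong to ubiquitous and orange points to tissue-restricted genes. Grey lines mark a mean coverage of 1, 2 and 4 over the peak, and peaks with a maximum of 5 or more are named with it. The TUBB3 start peak stands apart at 2731 bp and 12079.

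Mean coverage, the total signal per base of peak, brings peaks of unequal width to the same scale. It was 4.42 in the TUBB3 start peak, 4.13 in the tallest ACTG1 peak and 4.03 in the tallest TUBB4B peak. The next were the ACTB peaks inside the gene, at 3.07 and 3.01. The TUBB3 start peak was therefore large in total mainly by its width, with a mean coverage near that of ACTG1 and TUBB4B. The lowest mean coverage was 1.04, in the TUBB2A peak.

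TUBB2A, on chromosome 6 from 3153666 to 3157544 on the minus strand, encodes a beta-tubulin abundant in brain. Its 1 peak, with a maximum of 2, a total of 915 and a width of 880 bp, lay wholly upstream, 247 to 1126 bp before the start and 4125 to 5004 bp from the gene's end. It overlapped the promoter window by 4 bases and lay within 1000 bp of a boundary of LOC105374889, a lncRNA gene. Chromosome 6 as a whole had few peaks in this list, with a boundary peak at 16.7% of its protein-coding genes. That share was 58.2% on chromosome 16 (TUBB3), 54.7% on 17 (ACTG1), 47.4% on 9 (TUBB4B) and 45.4% on 10 (ACTA2). It was 40.6% on 12 (the alpha-tubulin cluster), 38.8% on 7 (ACTB) and 30.4% on 18 (TUBB6). The neighbouring paralogue TUBB2B, 66732 bp away, had no peak. TUBB6, on chromosome 18 from 12307669 to 12329826 on the plus strand, had no peak over a span of 22158 bp, and the nearest ones lay 72229 bp below and 9815 bp above it.

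Set side by side, 5 of 6 ubiquitous members had a peak in the window (83.3%) and 3 of 4 tissue-restricted members (75%). At an end of the span the counts were 4 of 6 (66.7%) and 2 of 4 (50%). The tallest peak per gene was 12 at TUBB4B, 9 at ACTG1, 6 at ACTB, 5 at TUBA1B, 4 at TUBA1C and absent at TUBB6 among ubiquitous members, a median of 5.5 with absence as 0. Among tissue-restricted members it was 12 at TUBB3, 2 at ACTA2 and TUBB2A and absent at TUBA1A, a median of 2. The median over all protein-coding genes was 2. The ranges overlapped fully, from 0 to 12 in both groups. A tallest peak of 5 or more was found at 4 of 6 ubiquitous and 1 of 4 tissue-restricted members, compared with 17.8% of protein-coding genes.

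Peak for peak, the 12 peaks of ubiquitous members had a median maximum of 3.5 and a median total of 1600. The 7 peaks of tissue-restricted members had 3 and 1025. TUBB3 alone held 5 of these 7. The difference between the medians per gene depends on shared peaks: without peaks that also lie at a boundary of another gene, the ubiquitous median was 3.5 and the tissue-restricted median 1. TUBB3 then kept its peak of 5 as tallest, since its start peak is shared with MC1R. With peaks of maximum coverage 3 or more, or with the 22878 highest by total signal, the ubiquitous median stayed at 5.5 and the tissue-restricted median was 0.

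**Figure D3:**
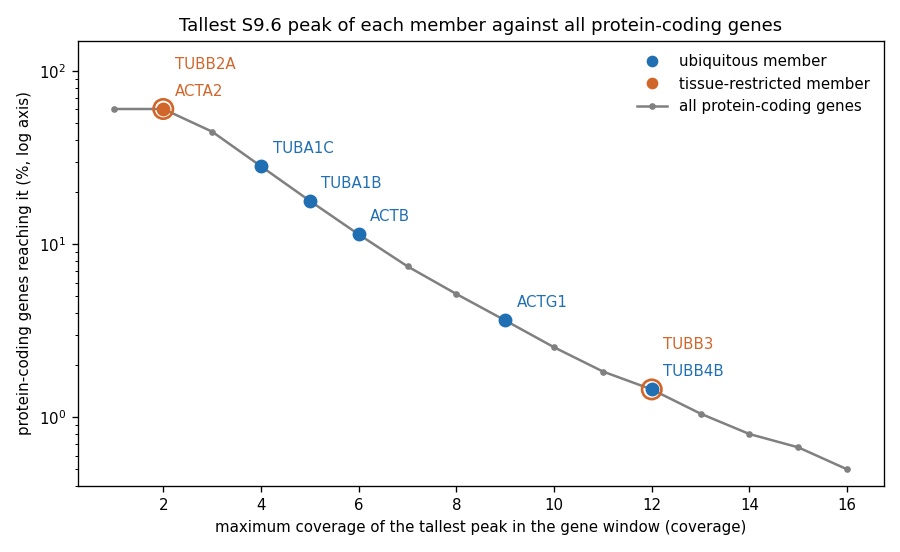
The horizontal axis gives the maximum coverage of the tallest peak in a gene's window and the vertical axis the percent of all protein-coding genes that reach at least this value, on a log scale. Blue marks are ubiquitous and orange marks tissue-restricted members; TUBA1A and TUBB6, without a peak, are not drawn. TUBB4B and TUBB3 share the point at 12, reached by 1.45% of genes, and ACTA2 and TUBB2A share the point at 2, reached by 60.4%.

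Starts and ends could be told apart for the 9 members with a promoter entry. A peak lay within 1000 bp of the outermost start in 5 of 9 (ACTG1, TUBA1B, TUBB2A, TUBB3 and TUBB4B), compared with 36.0% of 15812 protein-coding genes with a known strand. Within 1000 bp of the end, it was 3 of 9 (ACTG1, TUBB3 and TUBB4B), compared with 11.4%. All 3 of these also had a start peak. ACTG1 and TUBB4B span 2829 and 2421 bp, so that the areas around start and end lie close together in these short genes. The ACTG1 peak counted at its end had the middle of its maximum 900 bp inside the gene.

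Over promoter windows, 250 bases before to 50 after a listed start, a peak was found for 5 of 9 members, compared with 31.2% of 15811 protein-coding genes. Of the 14 listed windows, 6 had a peak, compared with 27.4% of 22131 windows. The median GC content was 72.3% in the 6 member windows with a peak and 55% in the 8 without. These windows are not all separate cases. TUBB2A (79.0%) counts among the 6 by an overlap of 4 bases, and both TUBB3 windows lie under the same peak. Among the 8, the TUBA1C windows with 48.0% and 46.7% overlap each other. Over all protein-coding promoters it was 66.3% with and 60% without a peak. GC-rich starts without a peak occurred too: the second TUBB6 window had 81.3%, the highest among members, and ACTG1 had 77.3%. Of the genes tied for the tallest peak, TUBB4B had 57.3% and TUBB3 had 65.3% and 79.0% in its windows. Over all windows, the share with a peak was 5.40% at a GC content from 40 to below 50%, 22% from 50 to below 60%, 39.2% from 60 to below 70% and 34.9% at 70% and above. The last of these bins holds 5 of the 14 member windows, 3 of them with a peak.

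**Figure D4:**
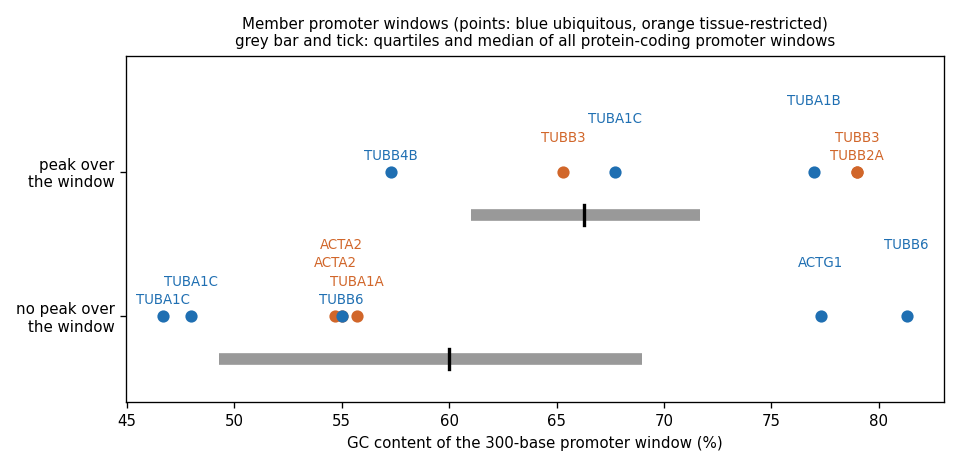
Points are the 14 promoter windows of 9 members, placed by GC content in percent, in the upper row with and in the lower row without a peak; blue is ubiquitous and orange tissue-restricted. Grey bars give the middle 50% of all protein-coding windows with the median as a black tick. TUBB2A and TUBB3 coincide at 79.0%, and TUBB6 and ACTA2 at 55%. TUBB6 and ACTG1 are the GC-rich windows in the lower row.

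Motifs were searched on both strands of the windows. The G4 pattern, 4 runs of at least 3 G separated by 1 to 7 bases, was in 5 of 14 member windows, compared with 30.5% of all protein-coding windows. In ACTG1, TUBB2A and TUBB6 it lay on the gene's own strand, and in TUBA1C and in the second TUBB3 window on the other strand. TATAAA was in TUBB2A alone, from 30 to 25 bases before the start, compared with 9.46% of all windows. The CArG box was in ACTG1 alone, from 94 to 85 bases before the start, compared with 1.25% of all windows; it reads the same on both strands. Member windows with a G4 pattern had a peak in 3 of 5 cases, compared with 2068 of 6740 such windows of all protein-coding genes. The TUBB2A window is among the 3 by an overlap of 4 bases. No match of one motif overlapped a match of another.

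Just outside the 1000 bp limit lay further peaks that the counts leave out. TUBA1B had a peak of 3 at 1540 bp, ACTB a peak of 4 at 1857 bp and ACTG1 a peak of 5 at 2230 bp from its nearest end. TUBB3 had a peak of 9 with a total of 6457 at 2158 bp, on the side of MC1R. Protein-coding neighbours were not free of peaks either. FBXL18 next to ACTB reached 8, BAHCC1 next to ACTG1 reached 12, LMBR1L next to TUBA1B reached 5 and DEF8 next to TUBB3 reached 4. STPG3 beside TUBB4B, CIDEA beside TUBB6 and CH25H, 214291 bp from ACTA2, had none. On the other side of these members, SLC34A3 beside TUBB4B reached 3. PRELID3A beside TUBB6 and STAMBPL1 beside ACTA2 each reached 4.

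The other genes of the same families had low peaks or none. Of these 15 actin, alpha- and beta-tubulin genes, 7 had a peak in the window (46.7%, compared with 60.4% of all protein-coding genes) and 5 at an end (33.3%, near the 40.1% of all). None exceeded a maximum of 3. TUBA4A, an alpha-tubulin gene, reached 3 with 3 peaks. The cardiac actin gene ACTC1, the enteric smooth muscle actin gene ACTG2, TUBA3C, TUBA3E, TUBA8 and TUBB1, the beta-tubulin gene of platelets, reached 2. Skeletal muscle ACTA1, ACTBL2, TUBA3D, TUBAL3, TUBB, TUBB2B, TUBB4A and TUBB8 had none. Of these, TUBB and TUBB2B lie on chromosome 6, where 16.7% of protein-coding genes had a boundary peak. The 15 genes were not sorted into ubiquitous and tissue-restricted, so they do not enter that comparison. Gamma-tubulin genes, which nucleate microtubules, had 5 at TUBG1 and 4 at TUBG2. TUBD1 had 2 and TUBE1 had none.

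Partner genes of the cytoskeleton were set beside the members by list, with the 40.1% of all protein-coding genes that had a boundary peak as background. Genes are named by the height of their boundary peak, and the tallest peak inside a span is added for some lists where it stood higher than a named one. In the list of Arp2/3 and other actin-related genes, 8 of 11 had a boundary peak (72.7%), led by ACTR1A (10), ACTL6A (6) and ACTR2 (4). Actin-binding genes had 7 of 12 (58.3%), with the actin-depolymerising factor gene DSTN at 8 and CAP1 and cofilin (CFL1) at 6; the gelsolin gene GSN reached 7 inside its span. Tropomyosin and myosin genes had 7 of 10 (70%), with the non-muscle myosin genes MYH9 at 13 and MYH10 at 9 and the light chain gene MYL12A at 3. Inside its span, the tropomyosin gene TPM3 reached 8. SRF with its cofactors and targets had 6 of 10 (60%), with talin (TLN1) at 9, vinculin (VCL) at 8 and the cofactor MRTFA at 6. The actinin gene ACTN4 reached 11 inside its span. SRF itself, on chromosome 6, had no peak.

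Folding and modification of tubulin formed the next lists. Chaperonin and prefoldin genes, whose products fold actin and tubulin, had a boundary peak in 9 of 14 (64.3%), compared with 40.1% of all protein-coding genes, led by CCT7 (8), CCT3 (5) and CCT5 (4). Tubulin cofactors and modifying enzymes had 4 of 12 (33.3%), near that share, with the folding cofactor TBCB at 14, the deacetylase HDAC6 at 8 and the tyrosine ligase TTL at 6. Microtubule-associated genes had 6 of 10 (60%), with MAP4 at 9 and CLIP1 and DYNC1H1 at 3; inside its span CLASP1 reached 5. Together the lists of 83 partner genes, gamma-, delta- and epsilon-tubulin included, had 48 with a boundary peak (57.8%) and a median tallest peak in the window of 3. The 10 members had 60% and a median of 4.5, and all protein-coding genes 40.1% and a median of 2.

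Markers of the tissues in which the restricted isoforms predominate were set beside the 40.1% of all protein-coding genes with a boundary peak and the 60.4% with a peak in the window. None of 6 smooth muscle genes had a boundary peak and 3 had a peak in the window, where MYH11 and SMTN, both at 3 inside their spans, were the tallest. Of 8 neuron genes, 3 had a boundary peak (37.5%), MAPT, RBFOX3 and SNAP25 with a maximum of 2 each, and 5 a peak in the window (62.5%). The neuron list thus stood near the share of all genes, and its median tallest peak of 2 equalled theirs. The TUBB3 start peak of 12 was higher than every boundary peak in these lists. Within the spans, the neuron list reached 5 at SYP.

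**Figure D5:**
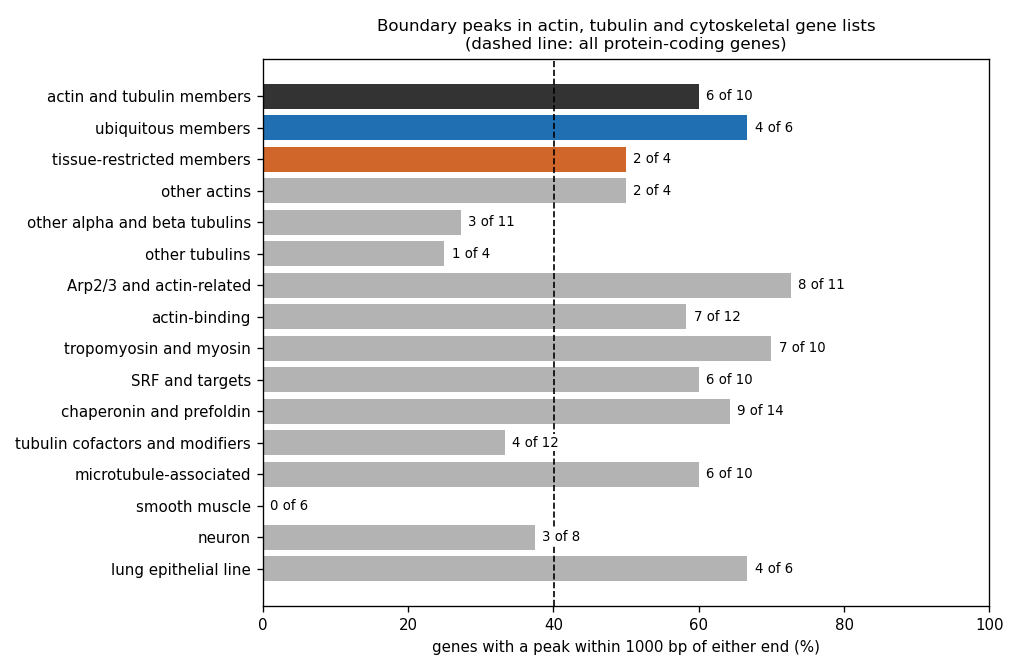
Bars give the percent of genes in each list with a peak within 1000 bp of either end, with the count beside each bar and all protein-coding genes (40.1%) as the dashed line. The members stand at 6 of 10, ubiquitous ones at 4 of 6 and tissue-restricted ones at 2 of 4. Smooth muscle genes stand at 0 of 6.

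Actins and tubulins have many processed pseudogenes, near-copies of their transcripts, to which reads could also map, and the sources used here do not say how multiply mapping reads were treated. Of 86 pseudogenes named after ACTB, ACTG1 and the alpha- and beta-tubulins, 7 had a peak in their window (8.14%), compared with 8.66% of 16458 pseudogenes in all. The tallest were ACTBP10 with 4 and TUBA3FP with 3. Coding parts of paralogous tubulin genes are also closely similar, so the assignment of peaks inside TUBB4B, TUBA1B or ACTG1 is uncertain. The part of multiply mapped reads in these values was not tested.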

How the data were processed

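CUT&Tag of A549 cells gave 1 deposited S9.6 peak list. The submitters' processing notes name SEACR 1.3, Bowtie2 2.4.2 and fastp 0.23.2, further bedtools 2.30.0, deepTools 3.5.2 and SAMtools 1.9, and the build GRCh38. The sources used here do not state the peak threshold or whether IgG served as control. The authors' values are a total signal and a maximum coverage per peak, both unscaled as far as the values show. Of 47810 peaks, 45756 on chromosomes 1 to 22 and X were used. Genes, strands and promoters came from RefSeq tables of GRCh38.p14, and all 118 listed symbols matched. Overlap needed 1 base and was checked on simulated intervals with Python 3.11.15, numpy 2.4.6 and pandas 2.3.3. Absent peaks counted as a height of 0. Members, classes and lists were chosen with earlier results of these data known. All 10 members, genes sharing a peak, nearest neighbours and the 3 genes of each list with the tallest boundary peak (ties in alphabetical order) could be named, and not all are; other names were chosen after their values were seen. Protein comparison was not made. Alternatives varied the window, the peaks, the overlap and the class of TUBB2A.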

Additional observations from a re-analysis of the deposited data

How the results depend on the processing

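The number of members with a peak (6 to 8 across the alternatives, 8 as reported), with a boundary peak (4 to 6, 6 as reported) and of distinct peaks (13 to 22, 19 as reported) each stayed within 1.5 times the reported count. The lowest boundary count, 4 of 10, came without peaks shared with another gene's boundary. In that setting 6 of 10 members had a peak in the window. The shares of all protein-coding genes were not recomputed for it, so these counts have no matching background. The median tallest peak of ubiquitous members, 5.5, was 4.5 with 500 bp around the span, with the span alone, with 50% of the peak required inside, and with the middle of the maximum required inside, an alternative chosen after the data were seen. It was 5 with TUBB2A counted as ubiquitous and 3.5 without peaks shared with another gene's boundary. The tissue-restricted median, 2, was 1 with the span alone and without shared peaks, and 0 with peaks of maximum coverage 3 or more and with the 22878 highest by total signal. In every one of these the ubiquitous median was higher, but all of them reuse the same 10 genes of 1 library. The constant order therefore adds no independent evidence for a difference between the classes. The share of protein-coding genes with a peak in the window, 60.4%, was 59.3% at 500 bp, 62.2% at 2000 bp, 56.3% with the span alone, 44.7% with maximum coverage 3 or more, 45.5% with the highest peaks by total signal, 59.6% with 50% overlap, 59.6% by the maximum and 57.5% among genes of 2421 to 56264 bp. The boundary share, 40.1%, was 35.3%, 45.8%, 32.2%, 30.4%, 36.7%, 36.7% and 43.2% in the same order, the span alone giving none. No paired analysis was possible because each antibody has 1 library. Depth limits low peaks most: a maximum of 2 is a stack of 2, and a gene without a peak is not a gene without hybrids.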
